A study of Danio rerio with 12 samples.

Results

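Globin and heme genes were followed in RNA from whole zebrafish hearts, a tissue sequenced together with the blood it held. The group comprised 8 of the 24782 genes listed: the haemoglobin chain genes hbaa1, ba1, ba1l, hbz, hbbe1.1, hbbe2 and hbae3, and alas2, an enzyme gene of heme synthesis. Members were the genes whose symbol in the deposited expression table was one of these names, and each name matched 1 gene. All 12 libraries came from zebrafish of 6 to 12 months whose hearts were collected 7 days after surgery, in 4 groups of 3. The groups were yap +/+ (wild-type) after sham surgery, yap +/+ after cryoinjury, yap -/- (mutant) after sham surgery and yap -/- after cryoinjury. In cryoinjury a steel probe chilled in liquid nitrogen was held against the exposed ventricle, and in sham surgery the chest was opened and the ventricle left alone. The labels did not state whether a library was 1 heart or several pooled, nor whether hearts were rinsed of blood, and the p-values below therefore describe variation among libraries, which may be partly technical.

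Haemoglobin is a tetramer of alpha and beta globin chains, each of which holds a heme group that binds oxygen. Zebrafish red blood cells keep their nucleus, and separate sets of chain genes serve the embryo and the adult. Heme is made by a chain of enzymes that starts in the mitochondrion with delta-aminolevulinate synthase, of which alas2 encodes the erythroid form and alas1 the form of other tissues. In a whole heart, transcripts of the haemoglobin chain genes and alas2 come mainly from blood in the chambers and vessels.

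Values are FPKM, fragments per kilobase of transcript scaled to all mapped fragments of the library, so levels can be set side by side between genes per unit of length. Relative depth, read from the steps between low values, ran from 0.812 in mutant cryoinjury 1 to 1.39 in 1 of the 2 columns of mutant sham 3, with wild-type sham 1 set to 1. The targeted gene, yap1, was at 18.8 to 29.8 FPKM in the 6 wild-type libraries and at 10.1 to 14.4 FPKM in the 6 mutant libraries, which do not overlap (log2 difference -0.95 ± 0.16, SE; limma adjusted p = 0.146). Mutant sham 1 and mutant cryoinjury 2 stood apart: 20 ribosomal protein genes made up 9.72% and 8.45% of summed FPKM there, against 3.40% to 5.06% in the other libraries. Mutant sham 1 also had the most genes listed at 0, 5138 against 3145 to 4347 in the other libraries, at a relative depth of 1.19. Defining genes of red blood cells were measured in every library: 11 of 12 markers were in the table, none was at 0 in any library, and the lowest value was 5.35 FPKM, for the transferrin receptor gene tfr1a. These markers include the members hbaa1, ba1 and alas2 themselves. The 6 cardiomyocyte markers were above 0 in every library as well.

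The adult alpha gene hbaa1 ranked between 1st and 13th among all genes of a library. Its level in wild-type sham hearts was 5126, 12589 and 49905 FPKM in replicates 1, 2 and 3. In wild-type cryoinjured hearts it was 16522, 38809 and 51544 FPKM. In mutant sham hearts it was 9159, 21421 and 17089 FPKM, and in mutant cryoinjured hearts 23958, 18032 and 16470 FPKM. The lowest library was thus a wild-type sham heart sample and another wild-type sham library was among the highest, with a 10.1-fold range over all 12, and every pair of groups overlapped.

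The adult beta gene ba1, now hbba1 in RefSeq, ranked between 2nd and 10th. It was at 7090, 10020 and 66247 FPKM in wild-type sham, and at 13597, 32684 and 37533 FPKM in wild-type cryoinjury. It was at 9986, 29213 and 24939 FPKM in mutant sham, and at 33693, 27891 and 23522 FPKM in mutant cryoinjury. Wild-type sham held both ends of the range, in replicates 1 and 3, whereas the highest library of hbaa1 was wild-type cryoinjury 3.

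The adult beta-type gene ba1l lay lower than ba1 in all 12 libraries, at 0.328 to 0.468 of its level. It was at 2960, 4243 and 31037 FPKM in wild-type sham and at 5238, 13725 and 16285 FPKM in wild-type cryoinjury. In mutants it was at 3275, 11935 and 11095 FPKM after sham surgery and at 11603, 10353 and 9493 FPKM after cryoinjury. Its lowest and highest libraries were the same as those of ba1.

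**Figure D1:**
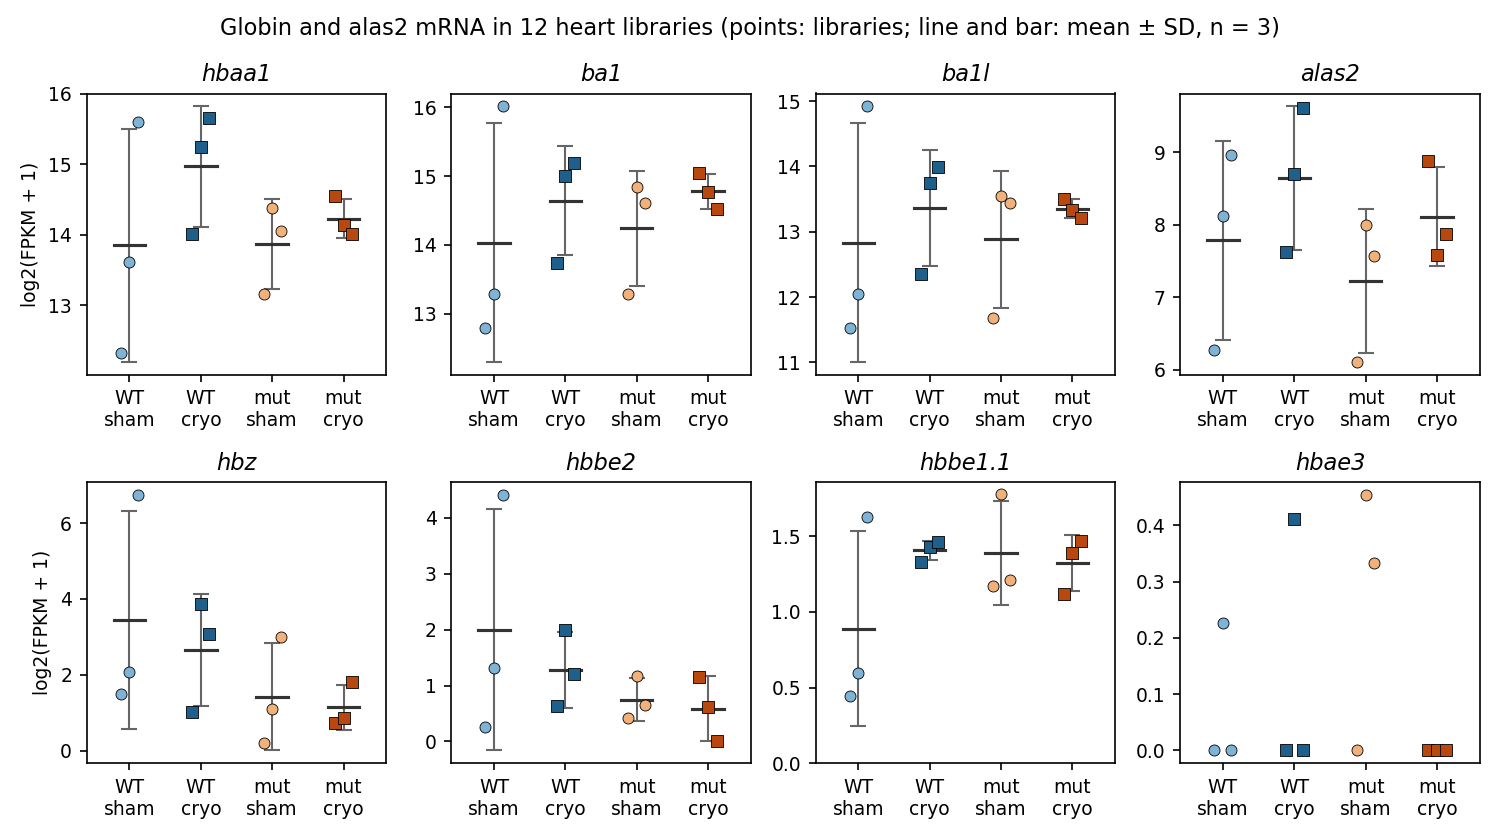
Level of each of the 8 members as log2(FPKM + 1) (vertical axes, each panel with its own range) in each of the 12 libraries (points), by group (WT, wild-type; mut, mutant; cryo, cryoinjury), with the group mean and SD of the log2 values (line and bar, n = 3) except for hbae3, which was listed at 0 in 8 libraries. Wild-type sham spans the widest range for ba1, from 7090 to 66247 FPKM, and no group of an adult gene or alas2 stands clear of the others.

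A second adult alpha gene, si:xx-by187g17.1, was not a member but was the highest haemoglobin gene by mean, at 35959 FPKM, and exceeded ba1 in 12 of 12 libraries. In order of mean level came si:xx-by187g17.1, then ba1 at 26368 FPKM, hbaa1 at 23385 FPKM and ba1l at 10937 FPKM. The neighbours ba1 and hbaa1 were not ordered the same way throughout, as ba1 was higher in 8 of 12 libraries, while hbaa1 exceeded ba1l in 12 of 12. Below them by mean came zgc:92880 (RefSeq hbba2) and si:ch211-5k11.6 (RefSeq hbaa2), then alas2 at 303 FPKM, zgc:163057 (RefSeq hbae4) at 62.6 FPKM, hbz at 12.1 FPKM, hbbe2 at 2.56 FPKM and hbbe1.1 at 1.46 FPKM. The order of hbz and hbbe2 held in 9 of 12 libraries and that of hbbe2 and hbbe1.1 in 4 of 12, so the last pair did not separate.

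Counting all 17 haemoglobin chain genes of the table, haemoglobin took 3.84%, 5.80% and 30.7% of summed FPKM in wild-type sham hearts. It took 7.82%, 19.2% and 21.9% in wild-type cryoinjury, 4.13%, 15.2% and 12.3% in mutant sham, and 16.3%, 12.2% and 12.0% in mutant cryoinjury. Group means were 13.5% ± 15.0, 16.3% ± 7.47, 10.6% ± 5.77 and 13.5% ± 2.44 (SD, n = 3 each), so the means lay closer together than the libraries of the wild-type sham group. In such bulk libraries fewer blood cells and less globin RNA per cell cannot be told apart.

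**Figure D2:**
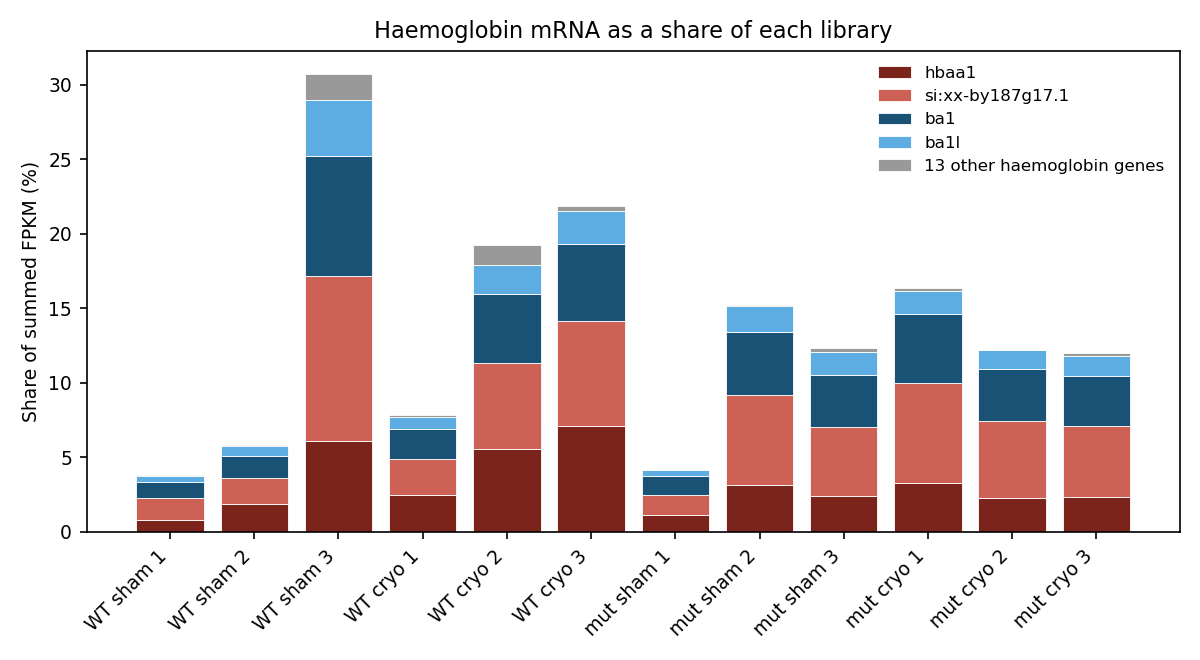
Share of summed FPKM (vertical axis, percent) taken by hbaa1, si:xx-by187g17.1, ba1, ba1l and the 13 other haemoglobin chain genes, stacked, in each of the 12 libraries (WT, wild-type; mut, mutant; cryo, cryoinjury). The stacks at the extremes, 3.84% and 30.7%, are replicates 1 and 3 of wild-type sham, and those of the 6 mutant libraries reach between 4.13% and 16.3%.

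The balance of adult alpha and beta chains varied less than the amount of haemoglobin. Summed FPKM of adult alpha genes was 1.39 to 1.89 times that of adult beta genes over the 12 libraries, while the haemoglobin sum itself ranged from 25888 to 253042 FPKM. The 4 main adult genes made up 93.2% to 99.9% of haemoglobin FPKM. The 11 embryonic-type genes together made up 0.0452% to 0.119%.

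Within the alpha pair the balance shifted more. The ratio of hbaa1 to si:xx-by187g17.1 was 0.505, 1.096 and 0.547 in wild-type sham, 1.01, 0.950 and 1.01 in wild-type cryoinjury, 0.810, 0.512 and 0.506 in mutant sham, and 0.492, 0.435 and 0.496 in mutant cryoinjury. The 3 wild-type cryoinjury libraries therefore lay above all 3 mutant cryoinjury libraries, and the sham groups overlapped. The ratio was noticed after its values were seen and carries no test. These genes are close copies in 1 cluster, and how reads that match both were divided is not given in the sources used here, so the level of each alone is uncertain.

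The other adult pair, si:ch211-5k11.6 (alpha) and zgc:92880 (beta), took 0.0638% of haemoglobin FPKM in mutant cryoinjury 2 and 6.77% in wild-type cryoinjury 2, a 106-fold range. The beta gene zgc:92880 was at 305, 182 and 8271 FPKM in wild-type sham and at 467, 4937 and 1154 FPKM in wild-type cryoinjury. It was at 67.1, 447 and 1126 FPKM in mutant sham and at 418, 36.8 and 715 FPKM in mutant cryoinjury. Both genes of this pair were high in the same 2 libraries, wild-type sham 3 and wild-type cryoinjury 2. They were lowest in mutant sham 1 and mutant cryoinjury 2, the 2 libraries rich in ribosomal protein genes. How far these few libraries set the genotype differences was not tested. The genotype difference of zgc:92880 was -1.94 ± 1.105 on the log2 scale (SE; limma adjusted p = 0.556), and that of si:ch211-5k11.6 was -2.19 ± 1.18 (limma adjusted p = 0.542).

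**Figure D3:**
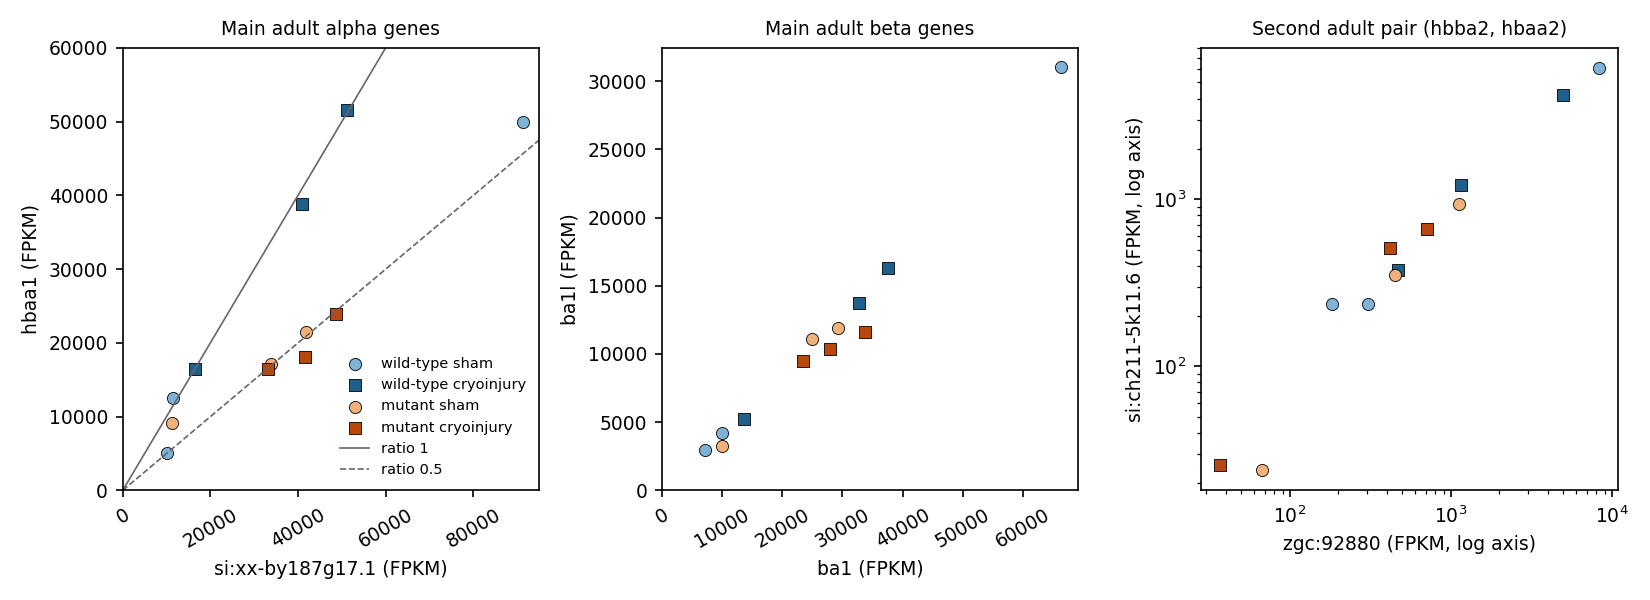
Adult globin genes against each other, with 1 point a library coloured by group: hbaa1 against si:xx-by187g17.1 and ba1l against ba1 in FPKM on linear axes, and si:ch211-5k11.6 against zgc:92880 in FPKM on log axes. The lines in the first panel mark ratios of 1 and 0.5; the 3 wild-type cryoinjury libraries lie near the first (1.01, 0.950 and 1.01) and the 3 mutant cryoinjury libraries near the second (0.492, 0.435 and 0.496).

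In the order of genes given by RefSeq for GRCz12tu, a newer build than the GRCz11 named for these files, the adult genes lie side by side in 1 cluster with several embryonic ones. From one end it reads hbaa2, hbba2, ba1l, hbaa1, hbba1, si:ch211-5k11.8 (si:xx-by187g17.1 here), hbbe1.1 and 6 further embryonic genes that end with hbae3, with no other gene between. The members hbbe2 and hbz are neighbours in a second cluster, which also holds zgc:163057 and hbbe3.

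Among embryonic-type members, hbz was the most variable. It encodes an embryonic alpha-type chain, listed as hbae5 in RefSeq. It was at 1.81, 3.24 and 106 FPKM in wild-type sham and at 1.01, 13.7 and 7.40 FPKM in wild-type cryoinjury. In mutants it was at 0.15, 1.14 and 6.91 FPKM after sham surgery and at 0.67, 0.83 and 2.51 FPKM after cryoinjury. Wild-type sham 3 stood far above every other library, and the ranges of wild-type and mutant libraries overlapped between 1.01 and 6.91 FPKM. Per 100000 FPKM of haemoglobin, hbz was at 1.92 to 42.0 in wild-type libraries and at 0.443 to 7.76 in mutant libraries, which overlap as well.

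The embryonic beta gene hbbe2 was at 0.20, 1.49 and 20.3 FPKM in wild-type sham and at 0.55, 2.98 and 1.31 FPKM in wild-type cryoinjury. It was at 0.33, 1.24 and 0.58 FPKM in mutant sham, at 1.21 and 0.54 FPKM in mutant cryoinjury 1 and 2, and was listed at 0 in mutant cryoinjury 3. As with hbz, wild-type sham 3 was far above the rest.

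The embryonic beta gene hbbe1.1 was at 0.36, 0.51 and 2.09 FPKM in wild-type sham and at 1.52, 1.69 and 1.75 FPKM in wild-type cryoinjury. It was at 1.25, 2.44 and 1.32 FPKM in mutant sham and at 1.17, 1.62 and 1.77 FPKM in mutant cryoinjury. Its lowest 2 libraries were wild-type sham 1 and 2, those with the least adult globin among wild-type sham hearts. Mutant sham 1, with hbbe1.1 at 1.25 FPKM, had less summed haemoglobin than wild-type sham 2 (33862 against 38798 FPKM).

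The embryonic alpha gene hbae3 was listed at 0 in 8 of 12 libraries. It was at 0.17 FPKM in wild-type sham 2, 0.33 in wild-type cryoinjury 2, 0.37 in mutant sham 2 and 0.26 in mutant sham 3. It was the 1 member below the mean of 1 FPKM required for testing.

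Of the other embryonic genes, zgc:163057 was the highest, at 27.3 to 105 FPKM. The gene si:ch211-5k11.2 (RefSeq hbae1.2), singled out after its values were seen, was at 0.69 to 4.23 FPKM in wild-type libraries and at 0 to 0.55 FPKM in mutant libraries, with no overlap. Its genotype difference was -1.31 on the log2 scale (limma adjusted p = 0.232). It shared its exact value above 0 with the near copy hbae1 in 3 libraries. All 3 were mutant libraries, and hbae1 was listed at 0 in the other 9. Both genes were at 0.545 FPKM in the highest of the 3, where their sum exceeds the lowest wild-type value of 0.69 FPKM. The level of each alone is therefore uncertain in mutants, and their sum does not separate the genotypes. How many of all genes separate by genotype as si:ch211-5k11.2 alone does was not counted.

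The heme enzyme gene alas2 was at 76.3, 277 and 495 FPKM in wild-type sham and at 197, 413 and 779 FPKM in wild-type cryoinjury. It was at 67.9, 255 and 188 FPKM in mutant sham and at 471, 190 and 233 FPKM in mutant cryoinjury. It was lowest in mutant sham 1 and wild-type sham 1, the libraries with the least haemoglobin, and all pairs of groups overlapped.

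Per 1000 FPKM of haemoglobin, alas2 was at 2.95, 7.14 and 1.96 in wild-type sham and at 3.74, 3.05 and 4.90 in wild-type cryoinjury. It was at 2.01, 2.42 and 2.11 in mutant sham and at 3.96, 1.94 and 2.77 in mutant cryoinjury. The highest haemoglobin library, wild-type sham 3, was thus near the bottom of this ratio. Relative to alas1, its counterpart of other tissues, alas2 had its lowest ratio, 0.409, in wild-type sham 1 and its highest, 4.32, in wild-type cryoinjury 3.

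**Figure D4:**
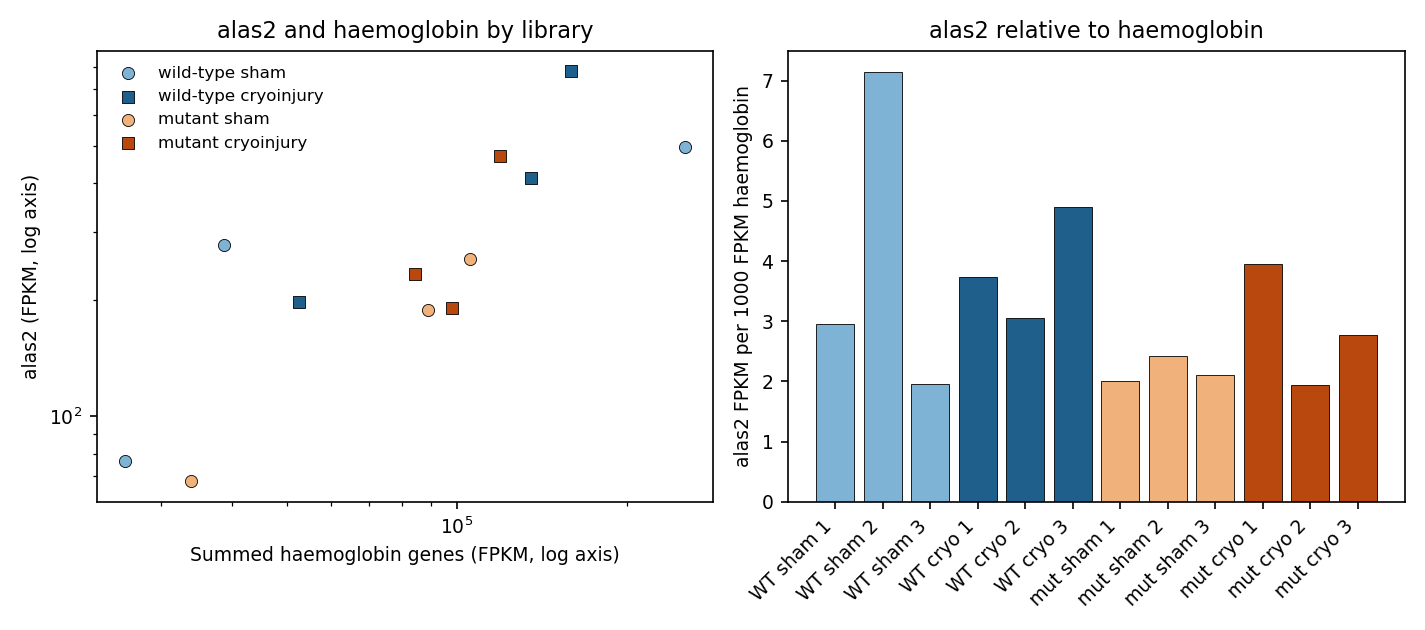
Left, alas2 against summed haemoglobin in FPKM on log axes, with 1 point a library; right, alas2 FPKM per 1000 FPKM of haemoglobin in each library (bars from 0; WT, wild-type; mut, mutant; cryo, cryoinjury). The level of alas2 ranges from 67.9 to 779 FPKM and the ratio from 1.94 to 7.14, highest in wild-type sham 2.

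The 7 members with a mean of at least 1 FPKM were tested in 7 comparisons with limma on log2(FPKM + 1), adjusted by Benjamini-Hochberg over 13969 genes. Over these 49 values, 0 members passed an adjusted p of 0.05 and 0 had an unadjusted p under it. The lowest unadjusted p was 0.0639, for hbz between genotypes (limma adjusted p = 0.524). Differences ranged from -2.01 to 1.12 on the log2 scale, which compresses changes of genes near 1 FPKM.

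Between cryoinjury and sham over both genotypes, 0 of 7 members passed, where 0.0644% of all genes did. All 9 genes that passed were higher after cryoinjury, and the median of all genes was 0.10 on the log2 scale. The alpha gene hbaa1 differed by 0.74 ± 0.50 (SE; 95% interval -0.35 to 1.83; limma adjusted p = 0.674). The beta gene ba1 differed by 0.57 ± 0.53 (-0.58 to 1.72; adjusted p = 0.771), and ba1l by 0.50 ± 0.57 (adjusted p = 0.817). Without wild-type sham 1 these were 0.36, 0.26 and 0.17, and without wild-type sham 3 they were 1.18, 1.07 and 1.02.

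The enzyme gene alas2 differed by 0.87 ± 0.51 in that comparison (-0.24 to 1.98; limma adjusted p = 0.609), by 0.50 without wild-type sham 1 and by 1.17 without wild-type sham 3. The embryonic genes hbz and hbbe2 were at -0.54 ± 0.86 and -0.44 ± 0.58, and hbbe1.1 at 0.23 ± 0.21 (limma adjusted p = 0.879, 0.846 and 0.776). The intervals of hbaa1, ba1 and alas2 hold both 0 and a log2 difference of 1, so neither was excluded.

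In wild-type hearts alone, 0 of 7 members passed, against 0% of all genes, and hbaa1 differed by 1.12 between cryoinjury and sham (limma adjusted p = 0.651). Leaving out wild-type sham 3 gave 2.00, and leaving out replicate 1 of that group gave 0.36. In mutant hearts 0 of 7 passed, against 0%, and hbaa1 differed by 0.36 (limma adjusted p = 1). The enzyme gene alas2 differed by 0.86 in wild-type and 0.89 in mutant hearts. In wild-type hearts the value was 0.11 when sham replicate 1 was left out and 1.45 when sham replicate 3 was, and in mutants it was 0.33 and 1.28 when sham replicates 1 and 2 were.

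The difference of these injury responses, mutant minus wild-type, was tested itself: 0 of 7 members passed, against 0% of all genes. It was -0.76 ± 1.00 for hbaa1, 0.50 ± 1.72 for hbz and 0.03 ± 1.02 for alas2 (SE; limma adjusted p = 0.9999 for each). With errors near 1 log2 unit or more, responses of unlike size in the genotypes could not be told from like ones.

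Between mutant and wild-type over both surgeries, 0 of 7 members passed, where 0.00716% of all genes did. That was 1 gene, the keratin gene krt15, named here because it is the only one. Adult globins showed small differences with wide errors: hbaa1 was at -0.36 ± 0.50, ba1 at 0.17 ± 0.53 and ba1l at 0.02 ± 0.57 (limma adjusted p = 0.824, 0.926 and 0.991). The embryonic gene hbz was at -1.76 ± 0.86 (95% interval -3.64 to 0.12; adjusted p = 0.524), and -0.93 without wild-type sham 3.

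The other embryonic genes hbbe2 and hbbe1.1 were at -0.97 ± 0.58 and 0.21 ± 0.21 between genotypes (limma adjusted p = 0.568 and 0.744). The enzyme gene alas2 was at -0.55 ± 0.51 (-1.66 to 0.57; adjusted p = 0.722). In sham hearts alone 0 of 7 passed, against 0% of all genes, with hbz at -2.01 and hbaa1 at 0.02. Without wild-type sham 3 the value of hbz was -0.36, and without wild-type sham 1 it was -2.99. After cryoinjury 0 of 7 passed, against 0%, with hbz at -1.51 and hbaa1 at -0.74.

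**Figure D5:**
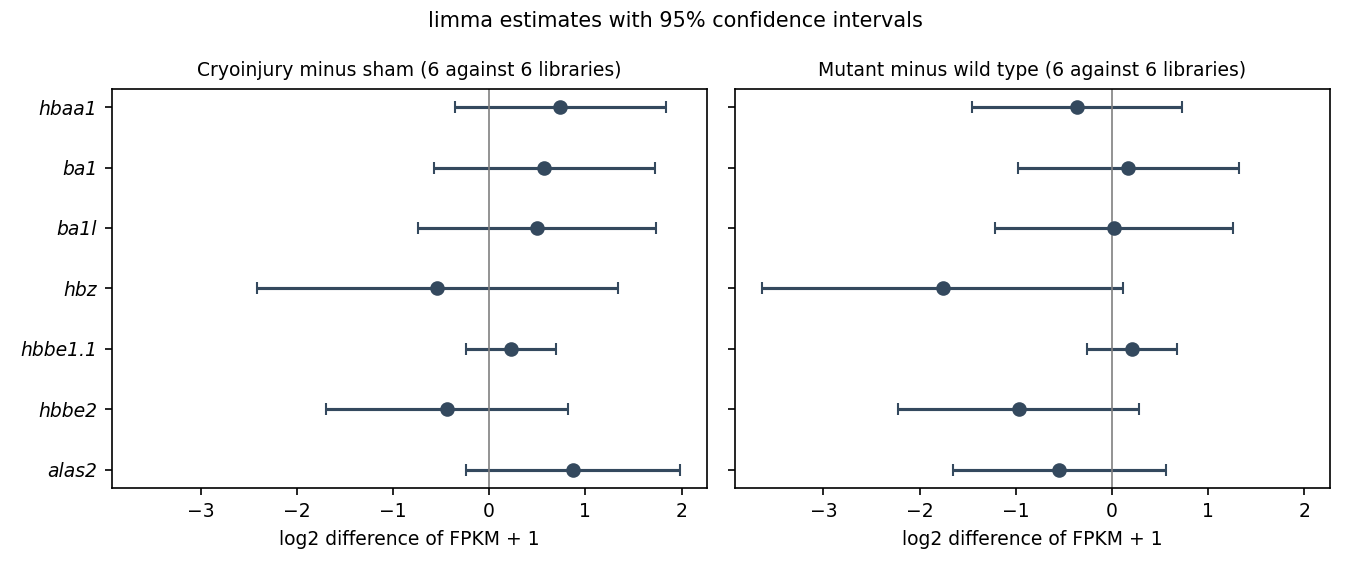
Log2 difference of log2(FPKM + 1) with its 95% interval for the 7 tested members, for cryoinjury minus sham over both genotypes and mutant minus wild-type over both surgeries. Every interval crosses 0, and those of hbz are the widest, from -3.64 to 0.12 between genotypes.

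The wide intervals go with the spread between libraries of a group. The residual SD of hbaa1 was 0.993 on the log2 scale, larger than that of 96.7% of the genes tested, against a median of 0.344 over all genes. That of ba1 was 1.05 (97.4%), of ba1l 1.14 (98.2%), of alas2 1.04 (97.3%) and of hbbe2 1.18 (98.4%). The gene hbz reached 1.79 (99.8%), whereas hbbe1.1 was at 0.378 (57.4%). At 0.36 to 2.44 FPKM, hbbe1.1 lies where log2(FPKM + 1) compresses changes. Its SD is therefore not on a par with those of the adult genes.

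Relations between members over the 12 libraries were computed for 6 pairs on the log2(FPKM + 1) scale. For ba1 and ba1l Pearson's r was 0.990 and Spearman's rho 0.972 (permutation p = 1e-05, the smallest the resampling can give, and 3e-05). For hbaa1 and ba1 r was 0.911 and rho 0.979 (permutation p = 3e-05 and 1e-05). Without the 2 libraries farthest from the median of the first gene, r was 0.987 and 0.897. How reads that match more than 1 globin gene were divided is not given, and any sharing between ba1 and ba1l would enter their r.

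The enzyme gene alas2 followed hbaa1 with r = 0.909 and rho = 0.818 (permutation p = 8e-05 and 0.00189), and r was 0.832 without the 2 farthest libraries. Within genotypes r was 0.950 over 6 wild-type and 0.959 over 6 mutant libraries. With ba1, alas2 had r = 0.792 and rho = 0.825 (permutation p = 0.00217 and 0.00173), and r = 0.581 without wild-type sham 1 and mutant sham 1. All 6 pairs had Benjamini-Hochberg adjusted permutation p-values of at most 0.0329.

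The embryonic pair hbz and hbbe2 had r = 0.855 and rho = 0.629 (permutation p = 0.00438 and 0.0329), but r = 0.209 without wild-type sham 3 and wild-type cryoinjury 2, so the relation rested on those libraries. Within genotypes its r was 0.969 over 6 wild-type and -0.19 over 6 mutant libraries. For ba1 and hbbe1.1 r was 0.774 and rho 0.629 (permutation p = 0.00273 and 0.0329), with r = 0.679 without the 2 farthest, 0.901 in wild-type and 0.304 in mutant libraries. Both genes of a pair are read from the same library and divided by the same total, which the coefficients share.

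Among 6370 genes with a mean of at least 5 FPKM and a named symbol, the gene whose log2 level most resembled hbaa1 over the 12 libraries was uros, uroporphyrinogen III synthase of the heme pathway (r = 0.968). It was followed by tmem229b (0.958), the adducin gene add2 of the membrane skeleton (0.957), tmod4 (0.951) and hdr (0.932). Next came slc4a1a, the band 3 anion exchanger of red cells (0.930), fam53b (0.928) and the biliverdin reductase gene blvrb (0.924). For alas2 the nearest were ell2 (0.926), the carbonic anhydrase gene cahz of red cells (0.918), uros (0.917) and kdm2ab (0.916). Then came alox5b.3 (0.915), add2 (0.915), stat2 (0.912) and ccdc97 (0.911). These coefficients are descriptions over 12 libraries that share their totals.

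The other genes of heme synthesis and its transport did not all share the globins' range. Of 17 tested, 0 passed in any comparison. Between genotypes 15 of 17 were lower in mutants, with a median of -0.48 against -0.03 over all genes, and 3 had an unadjusted p under 0.05. Of all 13969 genes 46.1% were higher in mutants and 1350 had such a p. Between injuries 9 were higher and 8 lower, with a median of 0.00, where 68.0% of all genes were higher after cryoinjury.

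At the first step of the pathway, alas1 was at 160 to 328 FPKM in wild-type and at 52.6 to 195 FPKM in mutant libraries (log2 difference -0.77 ± 0.33, SE; limma adjusted p = 0.498). The next enzyme gene, alad, which joins aminolevulinate into porphobilinogen, was at 13.1 to 28.5 and 4.35 to 16.3 FPKM (-0.81 ± 0.28; adjusted p = 0.425). For fech, ferrochelatase, which inserts iron in the last step, the ranges were 0.68 to 2.63 and 0.67 to 1.33 FPKM (-0.48 ± 0.20; adjusted p = 0.492). All of these overlapped between genotypes.

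Between those steps, hmbsa and hmbsb, the hydroxymethylbilane synthases, were at -0.54 ± 0.26 and -0.80 ± 0.43 between genotypes. The synthase gene uros was at -0.28 ± 0.35, the decarboxylase gene urod at -0.56 ± 0.27, and the oxidase genes cpox and ppox at -0.54 ± 0.25 and -0.48 ± 0.24 (limma adjusted p from 0.518 to 0.793 for these 6). The 2 libraries rich in ribosomal protein genes, mutant sham 1 and mutant cryoinjury 2, held the lowest values of alas1, at 52.6 and 78.6 FPKM, and of cpox, at 8.22 and 8.98 FPKM. The part of that library difference in the genotype values was not tested.

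In the red cell membrane and enzyme list 0 of 24 tested genes passed. After cryoinjury 19 were higher and 5 lower (median 0.36), where 68.0% of all genes were higher. In mutants, where 46.1% of all genes were higher, 10 genes of the list were higher and 14 lower (median -0.12). Its highest gene, cahz, was at 244, 407 and 2003 FPKM in wild-type sham and at 442, 964 and 1479 FPKM in wild-type cryoinjury, so replicates 1 and 3 of wild-type sham held the lowest and highest wild-type values, as for the beta globins. In mutants cahz was at 168, 986 and 577 FPKM after sham surgery and at 1026, 560 and 540 FPKM after cryoinjury. The antioxidant genes gpx1a and prdx2 ranged less, from 138 to 547 and from 165 to 321 FPKM.

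Among erythroid transcription factors and receptors, 0 of 22 passed. After cryoinjury 17 were higher and 5 lower (median 0.21), where 68.0% of all genes were higher. In mutants 12 were higher and 10 lower (median 0.04), where 46.1% of all genes were higher. The factor gene gata1a, which drives red cell programs, was at 7.95, 13.9 and 52.0 FPKM in wild-type sham and at 16.9, 39.2 and 53.0 FPKM in wild-type cryoinjury. It was at 13.7, 44.6 and 29.6 FPKM in mutant sham and at 24.4, 22.7 and 15.1 FPKM in mutant cryoinjury, with the lowest value in wild-type sham 1. The cofactor gene lmo2 ranged from 15.0 to 54.8 FPKM and the factor gene klf17 from 6.04 to 56.9 FPKM.

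Of 18 genes of iron uptake and storage 0 passed. After cryoinjury 11 were higher and 7 lower, where 68.0% of all genes were higher. Between genotypes 9 went each way, where 46.1% of all genes were higher in mutants. The ferritin heavy chain gene fth1a was at 785 to 3044 FPKM, lowest in mutant sham 1 and highest in wild-type cryoinjury 3. The glutaredoxin gene glrx5, which serves iron-sulfur cluster assembly in mitochondria, ranged from 55.7 to 136 FPKM. A ferritin-like gene, zgc:92066, was at 729 and 675 FPKM in mutant sham 1 and mutant cryoinjury 2 against 113 to 301 FPKM elsewhere.

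Of 5 genes of heme breakdown 0 passed. The reductase gene blvrb ranged from 39.2 to 256 FPKM, lowest in wild-type sham 1 and highest in wild-type sham 3. The inducible heme oxygenase gene hmox1a was at 4.75 to 52.3 FPKM, with 0.85 ± 0.46 between injuries (limma adjusted p = 0.583). The biliverdin reductase gene blvra, singled out after its values were seen, was at 5.23 to 6.79 FPKM in wild-type and at 0.92 to 4.91 FPKM in mutant libraries, with no overlap (-0.89 ± 0.26; adjusted p = 0.36). Genes that separate so were not counted over all 13969, of which 1350 had an unadjusted p under 0.05 in limma between genotypes.

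Among globins outside haemoglobin, mb encodes myoglobin, the oxygen-binding protein of muscle. It was at 12092 to 23292 FPKM in wild-type and at 4287 to 13001 FPKM in mutant libraries, which overlap (-1.06 ± 0.31; limma adjusted p = 0.368). The summed list of globins other than the members, mostly mb, was lowest in mutant cryoinjury 2 (4409 FPKM) and mutant sham 1 (4886 FPKM). Those are the libraries rich in ribosomal protein genes, and the next lowest was mutant sham 2 (7400 FPKM). How far they set the genotype difference of mb was not tested.

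Genes of other cells are described beside the globins, and for them too cell number and RNA per cell cannot be told apart. Over all genes tested, 68.0% were higher after cryoinjury and 46.1% were higher in mutants. Of 12 thrombocyte genes 0 passed, with 11 higher after cryoinjury and 9 higher in mutants, and the leading gene gp9 was at 20.5 to 84.6 FPKM. All 12 pan-leukocyte genes were higher after cryoinjury (median 1.01) and in mutants (median 0.47), with 0 passed. Between injuries 9 of the 12 had an unadjusted p under 0.05 in limma, against 1355 of all 13969 genes, and between genotypes 1 did, against 1350. The summed level of the leukocyte genes in wild-type hearts was between 162 and 280 FPKM after sham surgery and between 314 and 659 FPKM after cryoinjury. In mutants it was between 117 and 1010 FPKM after sham surgery and between 426 and 675 FPKM after cryoinjury. All 15 fibroblast and matrix genes were higher after cryoinjury (median 1.58; 0 passed), and 12 had an unadjusted p under 0.05 in limma. Their summed level was 1228 to 2092 FPKM in cryoinjured hearts and 173 to 2294 FPKM in sham hearts. The sham library mutant sham 2 held the highest sum of all 12 libraries for both the matrix genes and the leukocyte genes. Mutant sham 1 held the lowest of both. The part of these other cells in the globin values was not tested.

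Cardiomyocyte contractile genes took 6.74% to 15.8% of summed FPKM, least in mutant cryoinjury 2 and most in wild-type sham 1. Of 16 tested, 0 passed, with 12 lower in mutants (median -0.37) and 10 lower after cryoinjury (median -0.07). Of 12 endothelial genes 0 passed, with 7 higher after cryoinjury and 5 higher in mutants. The shares of all genes that were higher were 68.0% after cryoinjury and 46.1% in mutants. Among 5 liver and plasma protein genes 0 passed, with 1 higher after cryoinjury and 5 higher in mutants. All 20 ribosomal protein genes were higher in mutants (median 0.55; 0 passed), where 46.1% of all genes were. Their share of summed FPKM was 9.72% in mutant sham 1 and 8.45% in mutant cryoinjury 2. In the remaining mutant libraries it was 4.61% to 4.94%, against 3.40% to 5.06% in wild-type libraries. FPKM summed over all genes other than haemoglobin ran from 567699 to 787013.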

How the data were processed

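RNA of whole zebrafish hearts was extracted with Trizol and made into poly-A libraries for BGISEQ-500 sequencing, per the labels' protocols. The submitters' processing notes name HISAT, Bowtie2 and the build GRCz11, with no versions. The deposited table gives FPKM per gene, computed by the authors; read counts were not used here. Of its value columns 13 were used and 1, which matched no sample, was not. Mutant sham 3 has 2 columns, which differed by a median of 0.017 on the log2 scale where libraries of the same group differed by 0.212 to 0.673; they were averaged and counted once. The sources give no total counts, and depth was judged relative to 1 library from the steps of low values, on which 63 of 78 pairs of columns agreed within 0.03 on the log2 scale.

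Means of the 4 groups were fitted to log2(FPKM + 1) over all 12 libraries with limma 3.58.1 (R 4.3.3; trended empirical Bayes), for genes with a mean of at least 1 FPKM, with Benjamini-Hochberg adjustment over 13969 genes and a threshold of 0.05. The fit was tried on simulated data with independent noise for each gene and library, which held no shifts shared by a whole library. No block was used, because most same-numbered libraries did not deviate together, though 3 of 18 pairs correlated over 0.1, up to 0.33. Correlations used 100000 permutations. The 17 haemoglobin genes were matched by NCBI gene ID to RefSeq names, and si:xx-by187g17.1 was added to them after the table was seen. The members and the 13 gene lists were chosen with earlier results of these data known. Named were the members, the heme pathway in its order and the genes of highest mean level in other lists; other genes are named as markers, haemoglobin genes or the most alike in pattern, or marked as singled out. Alternatives were another pseudocount and filter, 3 rescalings, fits of the compared groups alone, array weights, a replicate block, 1 column of mutant sham 3, and leaving out each library.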

Additional observations from a re-analysis of the deposited data

How the results depend on the processing

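No member passed the threshold in any of 1035 values over 22 alternative settings. The lowest limma adjusted p was 0.158, for hbbe1.1 in the injury comparison of wild-type hearts with array weights, and 80 values changed sign. Between genotypes in sham hearts, hbaa1 turned from 0.02 to -0.041 with median-of-ratios rescaling, -0.089 when rescaled without haemoglobin and -0.028 as TPM. Over both surgeries, ba1l turned from 0.02 to -0.10 without haemoglobin and -0.047 as TPM. In the difference of the injury responses, alas2 turned from 0.03 to -0.000583 without haemoglobin, -0.010 as TPM and -0.55 with array weights, and hbz from 0.50 to -0.97 with array weights. The cause was not tested.

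With 1 library left out in turn, both ends of the ranges below came without wild-type sham 1 or without wild-type sham 3, except for hbz in mutants, where they came without mutant sham 1 or 3. The gene hbaa1 ranged from -0.74 to 0.90 between genotypes in sham hearts, from -0.74 to 0.080 over both surgeries and from -1.64 to 0.0053 in the difference of responses. The gene hbz ranged from -1.76 to 0.86 for injury in wild-type, from -0.90 to 0.49 in mutants, from -1.03 to 0.29 over both and from -1.15 to 1.48 in the difference of responses. The gene alas2 ranged from -1.31 to 0.027 between genotypes in sham hearts and from -0.56 to 0.78 in the difference of responses. Between genotypes over both surgeries, ba1 ranged from -0.14 to 0.67 and ba1l from -0.31 to 0.54.

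Counts over all genes moved more. For injury in wild-type hearts, 0 genes passed in limma (1211 at an unadjusted p under 0.05), 8 in a fit of the compared groups alone and 409 with array weights, whose estimation stopped before converging. For injury in mutants 0 became 3 without a filter and 1 with median-of-ratios rescaling (435 unadjusted), and for genotype after cryoinjury and for the difference of responses 0 became 1 without a filter (703 and 271 unadjusted). For injury over both genotypes 9 became 3 with a filter at 5 FPKM, 19 with median-of-ratios rescaling and 290 with array weights. For genotype over both surgeries 1 became 3 without a filter, 15 with array weights, and 0 with median-of-ratios rescaling, without haemoglobin and as TPM. With the replicate block these counts were 3 and 0, and of 18 same-numbered pairs 3 correlated over 0.1, from -0.20 to 0.33. Leaving out single libraries gave 0 to 18, 0 to 3, 0 to 2 and 0 to 0 genes in the 4 simple comparisons, with 18 for injury in wild-type without mutant sham 1. It gave 1 to 428 for injury over both, with 428 without mutant sham 2, 0 to 5 for genotype over both and 0 to 1 for the difference of responses. The intervals of hbaa1, ba1 and alas2 for injury over both genotypes hold a log2 difference of 1.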
